A study of Homo sapiens with 6 samples.

Results

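Gangliosides are sphingolipids of the outer cell membrane whose sugar chain carries sialic acid, and GD2 is the ganglioside against which antibodies used in neuroblastoma treatment are directed. Cells build it stepwise in the Golgi. Glucose and then galactose are added to ceramide to give lactosylceramide, a first sialic acid gives GM3, a second gives GD3, and N-acetylgalactosamine turns GD3 into GD2. Later enzymes extend GD2 to the larger gangliosides of neurons. The RNA of 9 genes that encode these enzymes is described here, out of 60651 genes counted in each library. They were *UGCG*, *B4GALT5*, *B4GALT6*, *ST3GAL5*, *ST8SIA1*, *B4GALNT1*, *ST8SIA5*, *B3GALT4* and *ST3GAL2*. They were chosen by symbol for their place in the pathway, with no threshold on a measured value. All 9 symbols were found. No lipid was measured.

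Total RNA depleted of ribosomal RNA was sequenced from 6 cultures of a human neuroblastoma cell line, 3 labelled EtOH and 3 labelled Tet. Per the protocol, Tet stands for tetracycline given for 5 days to switch on a *MYCN* transgene, and the sources used here state no time for the EtOH cultures. The labels name several cell models. The titles give IMR-5/75, a *MYCN*-amplified line, and a tag speaks of a knockdown. The paper that reported these data describes IMR-5/75 cells in which tetracycline switches on an shRNA against *MYCN*, the opposite of the protocol. The protocol instead describes SK-N-SH cells with a tetracycline repressor and an inducible *MYCN* gene, grown as single clones under G418 and blasticidin. In the paper the *MYCN*-inducible line kept under these drugs was made from SK-N-AS. Libraries are therefore called by the label EtOH or Tet only, and nothing in the labels says whether the 3 cultures of a label were independent, so that p-values measure the spread between these cultures alone. *MYCN* itself had a mean of 190.0 CPM ± 57.4 (SD, n = 3) with EtOH and 180.7 CPM ± 30.6 (SD, n = 3) with Tet, where CPM is the count scaled to a common library total by TMM. Its log2 fold change was -0.07 (SE 0.23, adjusted p = 0.956 by edgeR), and the libraries of the 2 labels overlapped. In every comparison below, Tet therefore names a label and not a shown change in *MYCN* RNA.

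Library totals ran from 27933378 to 40498065 counts. On the first principal component, EtOH replicate 2 (84.2) and Tet replicate 2 (47.3) had the highest scores. Tet replicate 1 was at -1.81, and the remaining libraries ran from -55.0 to -37.0. The labels separated on the second component. Of the noradrenergic neuroblastoma markers, *GATA3*, *HAND2* and *ISL1* were well expressed in all 6 libraries, whereas the catecholamine enzyme gene *TH* had a single count in 1 library and *DBH* stayed at or under 0.453 CPM. The Schwann lineage marker *S100B*, the T cell marker *CD3E* and the endothelial marker *VWF* were at 0 throughout. Among mesenchymal-state markers *COL1A2* was at 0, while *TWIST1*, *FN1* and *PRRX1* were present.

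All but one of the enzymes passed the filter on low counts, and none of the 8 tested differed between the labels after adjustment over all 22443 genes tested, of which 0.236% did (0.147% higher and 0.0891% lower with Tet). At an unadjusted p under 0.05, where 5.83% of all genes were higher with Tet and 4.94% lower, 1 of the 8 was higher (*ST8SIA1*, the GD3 synthase gene) and 0 were lower. All 3 Tet libraries lay above all 3 EtOH libraries for 3 of the 8, namely *ST8SIA1*, *B4GALNT1* and *ST3GAL2*, against 9.20% of all genes, and for 0 of the 8 did they all lie below, against 8.28%. The median log2 fold change of the 8 was 0.21, beside -0.0061 for all tested genes, and the median of its size was 0.217, beside 0.272 for all tested genes. These are RNA levels of whole cultures, in which a different share of cells of a type and a different level per cell cannot be told apart.

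**Figure D1:**
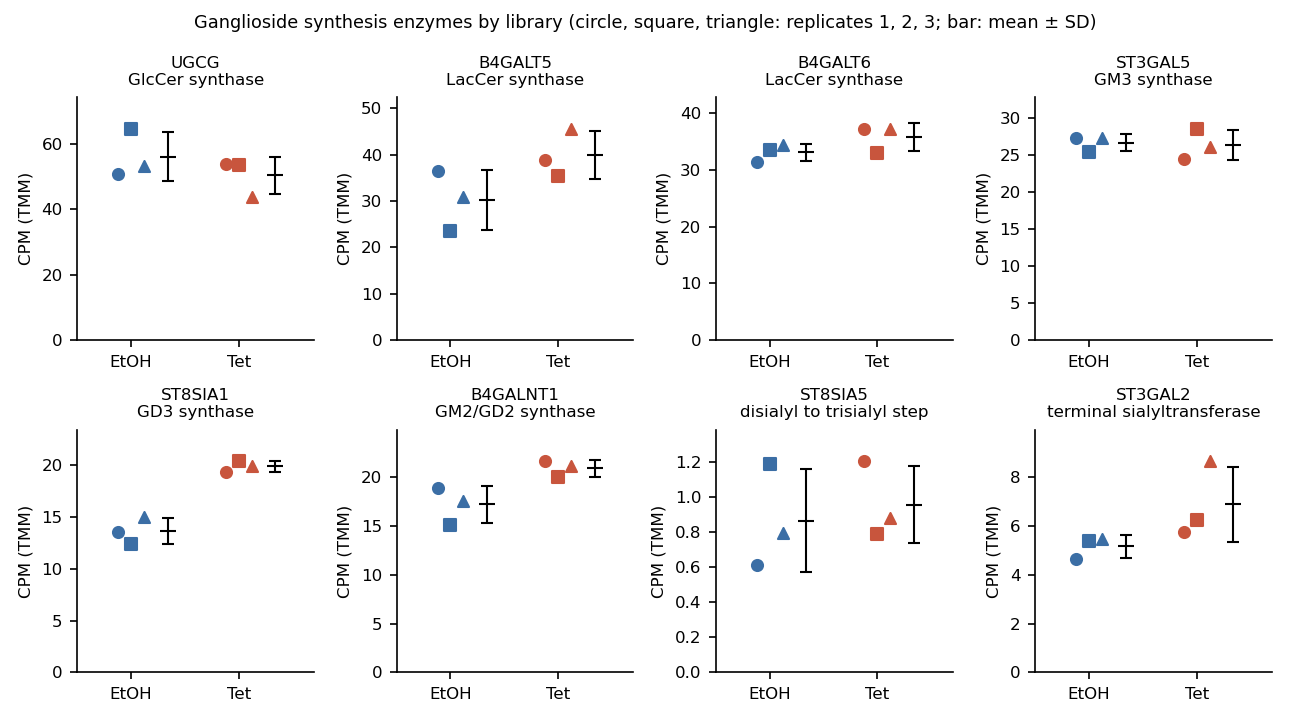
Level of the 8 tested enzymes in each library, in TMM-scaled CPM on axes that start at 0. Points are the 3 libraries of each label and bars give mean ± SD. The labels are apart for *ST8SIA1* (12.4 to 14.9 with EtOH, 19.3 to 20.3 with Tet), *B4GALNT1* and *ST3GAL2*, and overlap for the other panels.

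*UGCG* encodes ceramide glucosyltransferase, which commits ceramide to the glycosphingolipids (ENSG00000148154.10, chromosome 9, 111896814 to 111935369, plus strand, GRCh38). It was measured at 50.6, 64.4 and 53.0 CPM in the EtOH libraries and at 53.9, 53.4 and 43.8 CPM in the Tet libraries. EtOH replicate 2 was the highest and Tet replicate 3 the lowest, and the other 4 lay within a narrow band. The log2 fold change was -0.15 (SE 0.17, adjusted p = 0.823 by edgeR), within the spread between cultures.

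Galactose is added next by either of 2 lactosylceramide synthases. *B4GALT5* (ENSG00000158470.5, chromosome 20, 49632945 to 49713878, minus strand) had 36.5, 23.5 and 30.9 CPM with EtOH and 38.9, 35.3 and 45.6 CPM with Tet. EtOH replicate 1 lay just above Tet replicate 2, so the labels overlapped, and the log2 fold change of 0.40 (SE 0.20) had an adjusted p of 0.539 by edgeR. *B4GALT6* (ENSG00000118276.11, chromosome 18, 31622247 to 31685836, minus strand) had 31.4, 33.6 and 34.4 CPM with EtOH and 37.2, 33.0 and 37.2 CPM with Tet. The labels overlapped here too, with a log2 fold change of 0.11 (SE 0.15, adjusted p = 0.862 by edgeR). Per transcript length (TPM), *B4GALT5* made up 56.6%, 44.0% and 50.2% of the pair in the EtOH libraries and 54.0%, 54.6% and 57.9% in the Tet libraries. RNA of both synthases thus stood at similar levels per length, and the share of either overlapped between the labels. Their exons differ in GC content (48.0% for *B4GALT5* and 36.6% for *B4GALT6*), and the part of this in the share was not tested.

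*ST3GAL5* encodes GM3 synthase, which adds the first sialic acid to lactosylceramide (ENSG00000115525.18, chromosome 2, 85837120 to 85905199, minus strand). Its level was 27.3, 25.4 and 27.3 CPM with EtOH and 24.5, 28.5 and 26.1 CPM with Tet. The means of 26.7 ± 1.12 and 26.4 ± 2.04 CPM (SD, n = 3 each) differed by less than the spread between cultures. On the log2 scale this was the smallest difference of the 8 tested enzymes, at -0.017 (SE 0.15, adjusted p = 0.986 by edgeR).

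*ST8SIA1* encodes GD3 synthase, which adds the second sialic acid and opens the branch that leads to GD2 (ENSG00000111728.11, chromosome 12, 22063773 to 22437041, minus strand). It was measured at 13.5, 12.4 and 14.9 CPM with EtOH and at 19.3, 20.3 and 19.9 CPM with Tet, from 343.5 to 790.5 counts a library. The lowest Tet library stood well above the highest EtOH library, and the Tet libraries were close to each other (13.6 ± 1.27 against 19.8 ± 0.510 CPM, SD, n = 3 each). On the log2 scale the difference was 0.54 (SE 0.17), which is 1.46-fold with a range of 1.30 to 1.64 for 1 SE either way. Its unadjusted p was 0.0112 and its adjusted p was 0.278 by edgeR, so it did not pass the threshold. The difference was of similar size when a smooth dependence on GC content was removed from each library (0.53, adjusted p = 0.249 by edgeR) and without replicate 2 of both labels (0.47).

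The promoter windows of these consecutive enzymes are shown because *ST8SIA1* was apart between the labels and *ST3GAL5* was not. Both are RefSeq windows on the minus strand of GRCh38.p14, from 250 bases before an annotated start to 50 bases after it, printed 5′ to 3′. Such windows were found for 4 of the 9 enzymes. Capitals mark matches on either strand to a GC box (GGGCGG, or CCGCCC on the other strand) and to CCAAT (or ATTGG). The *ST8SIA1* window is chr12:22334658-22334957, whose annotated start lies 102334 bases downstream of the outermost start of the gene in the deposited annotation. The *ST3GAL5* window is chr2:85888985-85889284, 1 of 5 RefSeq windows of that gene. It is the nearest of them to the outermost start in the deposited annotation, and its annotated start lies 16165 bases downstream of that start.
ST8SIA1: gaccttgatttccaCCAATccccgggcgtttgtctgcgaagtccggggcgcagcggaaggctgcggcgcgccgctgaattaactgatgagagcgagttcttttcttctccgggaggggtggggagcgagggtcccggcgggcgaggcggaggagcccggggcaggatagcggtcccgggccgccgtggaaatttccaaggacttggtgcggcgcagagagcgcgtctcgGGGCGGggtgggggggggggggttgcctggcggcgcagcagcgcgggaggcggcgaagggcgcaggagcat
ST3GAL5: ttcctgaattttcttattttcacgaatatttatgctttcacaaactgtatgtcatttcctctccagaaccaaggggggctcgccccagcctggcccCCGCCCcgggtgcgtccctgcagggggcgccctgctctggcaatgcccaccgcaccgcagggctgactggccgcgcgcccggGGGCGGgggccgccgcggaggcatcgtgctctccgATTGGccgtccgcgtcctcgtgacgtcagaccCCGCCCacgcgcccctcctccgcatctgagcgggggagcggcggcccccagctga

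The *ST8SIA1* window held 1 GC box and 1 CCAAT, and the *ST3GAL5* window held 3 GC boxes and 1 CCAAT. The *UGCG* and *B4GALT5* windows each held 3 GC boxes and 0 CCAAT. The E-box CACGTG, the sequence that MYC family proteins are known to bind, was in 0 of these 4 windows. Of all 34943 promoter windows of 300 bases, 7.23% held CACGTG, 44.9% a GC box and 34.6% CCAAT. The motifs share no overlapping match in the windows shown, and such matches are a description of the letters only.

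*B4GALNT1* encodes the N-acetylgalactosaminyltransferase that turns GD3 into GD2 and GM3 into GM2 (ENSG00000135454.14, chromosome 12, 57623409 to 57633239, minus strand). It had 18.9, 15.1 and 17.6 CPM with EtOH and 21.6, 20.0 and 21.1 CPM with Tet. All Tet libraries lay above all EtOH libraries, but EtOH replicate 1 came close to Tet replicate 2. The means were 17.2 ± 1.91 and 20.9 ± 0.850 CPM (SD, n = 3 each), and the log2 fold change of 0.28 (SE 0.17) had an adjusted p of 0.621 by edgeR. Of its exon bases, 27.1% lie inside genes of the opposite strand, the pseudogene *SLC26A10P* (0.866 to 4.88 CPM) and ENSG00000287908 (0.541 to 2.52 CPM), and the counting did not use the strand. Reads from the shared bases cannot be assigned to either strand in these values.

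The enzymes that act after GD2 or beside it were weakly expressed. *ST3GAL2* encodes a sialyltransferase of the terminal galactose of larger gangliosides (ENSG00000157350.13, chromosome 16, 70375977 to 70439237, minus strand). Its levels were 4.63, 5.37 and 5.49 CPM with EtOH and 5.74, 6.26 and 8.66 CPM with Tet. The labels did not overlap, with Tet replicate 3 far above the other Tet libraries, and the log2 fold change was 0.42 (SE 0.24, adjusted p = 0.605 by edgeR). *ST8SIA5* encodes a sialyltransferase that adds further sialic acids to disialylated gangliosides (ENSG00000101638.14, chromosome 18, 46667821 to 46759257, minus strand). It had 0.614, 1.19 and 0.793 CPM with EtOH and 1.20, 0.790 and 0.881 CPM with Tet, the labels overlapped, and the SE of 0.41 exceeded its log2 fold change of 0.15 (adjusted p = 0.949 by edgeR). *B3GALT4* encodes the galactosyltransferase that extends GD2 to GD1b and GM2 to GM1 (ENSG00000235863.4, chromosome 6, 33277123 to 33284832, plus strand). It had 3 counts in EtOH replicate 1 and 0 in the other 5 libraries. A count of 0 allows up to 3 counts, which is 0.0741 to 0.107 CPM in these libraries, so *B3GALT4* was not tested and no fold was computed.

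**Figure D2:**
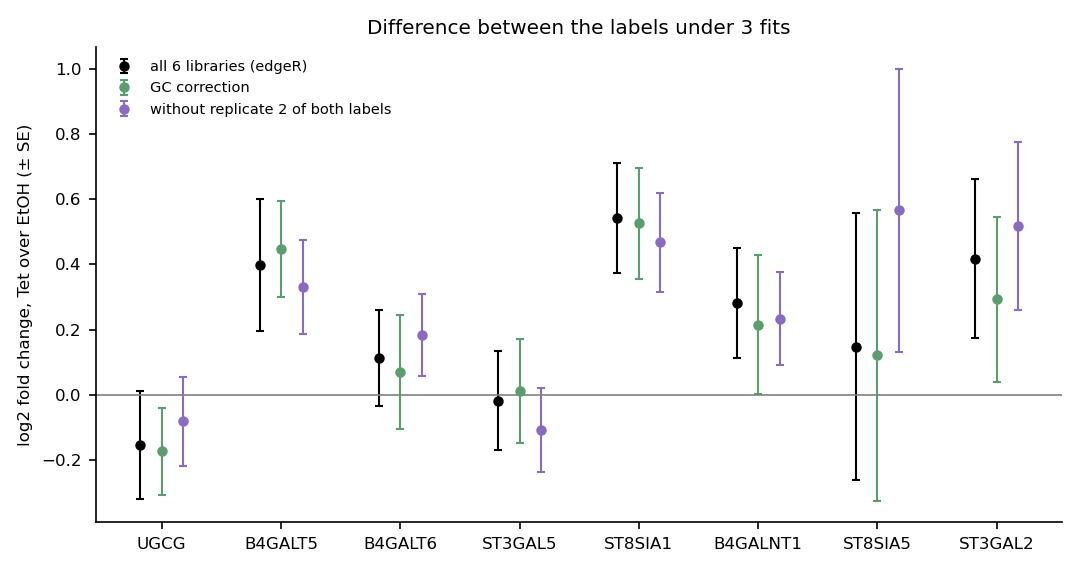
Log2 fold change of Tet over EtOH for the 8 tested enzymes, with error bars of 1 SE. Black is the fit of all 6 libraries, green the fit after a correction for exon GC content, and purple the fit without replicate 2 of both labels. *ST8SIA1* lies between 0.47 and 0.54 in these 3 fits, and *ST8SIA5* has the widest error bars.

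*ST3GAL2* and *B4GALNT1* are rich in GC, with 56.2% and 57.0% of their exon bases, and the levels of genes of that content differed between libraries. Among tested protein-coding genes of 55 to 60% GC, the median log2 deviation of a library from the mean of all 6 was 0.51 in Tet replicate 3 and -0.39 in EtOH replicate 2. *ST3GAL2* deviated by 0.55 in Tet replicate 3, and *B4GALNT1* by -0.32 in EtOH replicate 2, both near the median of that band. In other libraries they departed from it. *B4GALNT1* deviated by 0.16 in Tet replicate 3 and by 0.19 in Tet replicate 1, where the band was at 0.51 and -0.12. *ST3GAL2* deviated by -0.35 in EtOH replicate 1 and by -0.14 in EtOH replicate 2, where the band was at 0.27 and -0.39. After the GC correction the log2 fold changes were 0.29 for *ST3GAL2* (adjusted p = 0.712 by edgeR) and 0.21 for *B4GALNT1* (adjusted p = 0.758 by edgeR). *ST8SIA1* has 40.4% GC, and the median deviation of its band ran from -0.067 to 0.10 over the libraries. The deviation of *ST8SIA1* ran from -0.40 in EtOH replicate 2 to 0.31 in Tet replicate 2. A median over many genes varies less than a single gene does, and the part of GC content in these deviations was not tested. *B4GALT5* had the largest deviation of an early enzyme, -0.55 in EtOH replicate 2, and *UGCG*, poor in GC, deviated the other way in that library (0.29).

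Ratios within a library remove the scaling between libraries, but not differences between libraries in the level of genes of unlike GC content. They are given as descriptions without a test, and no share over other gene pairs was computed. The count of *ST8SIA1* over that of *ST3GAL5*, the second sialic acid over the first, was 0.493, 0.488 and 0.547 with EtOH and 0.790, 0.713 and 0.762 with Tet. The labels did not overlap, and the mean ratio was 1.48 times as high with Tet. *B4GALNT1* over *ST3GAL5* was 0.692, 0.597 and 0.643 with EtOH and 0.884, 0.701 and 0.810 with Tet, again without overlap, although EtOH replicate 1 and Tet replicate 2 differed little. *B4GALNT1* over *ST8SIA1*, the last step of GD2 synthesis over the step before it, was 1.40, 1.22 and 1.18 with EtOH and 1.12, 0.982 and 1.06 with Tet. This ratio was lower in every Tet library than in any EtOH library, with means of 1.27 ± 0.119 and 1.05 ± 0.0686 (SD, n = 3 each). Its genes have 57.0% and 40.4% GC. The median log2 deviation of tested protein-coding genes of 55 to 60% GC was -0.39 in EtOH replicate 2 and 0.51 in Tet replicate 3. For those of 40 to 45% GC it was 0.10 and -0.066 in the same libraries. The part of GC content in this ratio was not tested. *ST8SIA1* over *UGCG* ran from 0.192 to 0.281 with EtOH and from 0.358 to 0.454 with Tet. The ratios of *B4GALT5* to *B4GALT6* and of *ST3GAL2* to *B4GALNT1* overlapped between the labels.

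**Figure D3:**
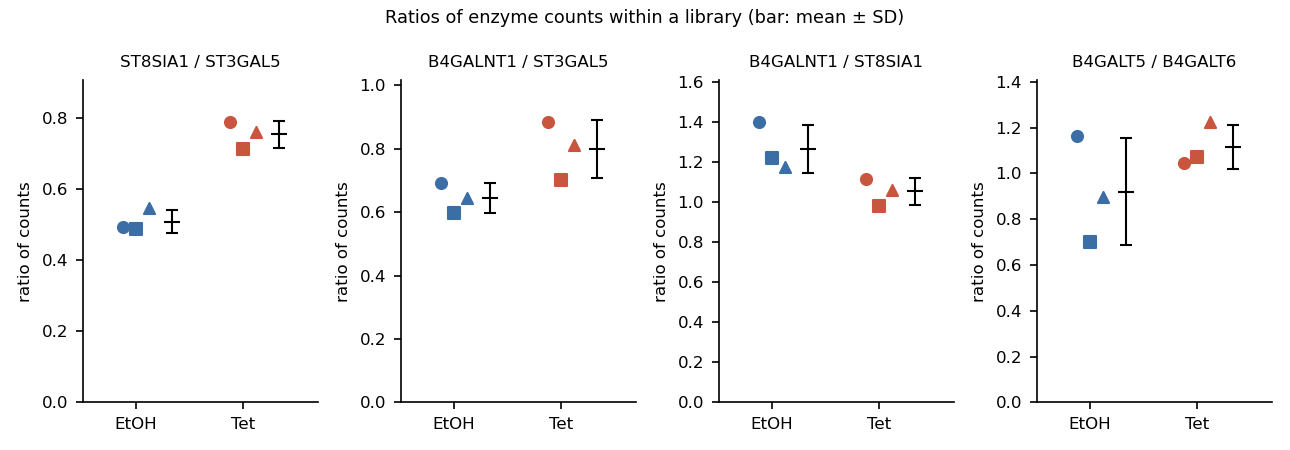
Ratio of the counts of 2 enzymes within each library, on axes that start at 0, with bars for mean ± SD of the 3 libraries of a label. *ST8SIA1* over *ST3GAL5* lies at 0.488 to 0.547 with EtOH and 0.713 to 0.790 with Tet, and *B4GALT5* over *B4GALT6* overlaps between the labels.

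Compared per length over all 6 libraries, the early enzymes stood highest. *UGCG* had a mean of 31.9 TPM (range 23.4 to 41.7), *B4GALT5* 20.1 TPM (14.7 to 23.5) and *B4GALT6* 17.7 TPM (15.9 to 19.8), and neighbours in this order overlapped. *B4GALNT1* followed with 6.56 TPM (5.67 to 7.73), *ST3GAL5* with 4.43 TPM (3.90 to 4.76) and *ST8SIA1* with 3.13 TPM (2.51 to 3.82), and the ranges of these did not overlap. GM3 and GD3 synthase RNA thus lay below that of both their substrate-supplying and their GD2-forming neighbours on this scale. In CPM, which does not use length, *ST3GAL5* (mean 26.5) stood above *B4GALNT1* (mean 19.1). The value of *B4GALNT1* may also hold reads of the genes on its opposite strand. *ST3GAL2* had 1.67 TPM (1.28 to 2.16), *ST8SIA5* 0.160 TPM (0.106 to 0.224), and *B3GALT4* 0.0159 TPM (0 to 0.0954). Among all tested genes, *UGCG* stood at percentile 82.0, *B4GALNT1* at 51.5, *ST8SIA1* at 36.9 and *ST8SIA5* at 1.01. The length used is the union of all annotated exons. It is 16300 bases for *ST3GAL5* and 14483 for *ST8SIA1*, against 7888 for *B4GALNT1* and 4567 for *UGCG*. TPM is too low for a gene that mainly makes a shorter transcript.

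Levels in these libraries also fell with GC content over all genes, from a median of 33.3 TPM for tested protein-coding genes under 40% GC to 0.617 TPM for those of at least 60%. *B4GALNT1*, with 57.0% GC, stood above the 1.11 TPM median of its own band, and *ST3GAL2* was near it. *ST8SIA1* was below the median of 20.3 TPM of genes with 40 to 45% GC. *B3GALT4* has 59.4% GC, in a band where 54.4% of protein-coding genes were tested. The part of GC content in the order of the enzymes was not tested.

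**Figure D4:**
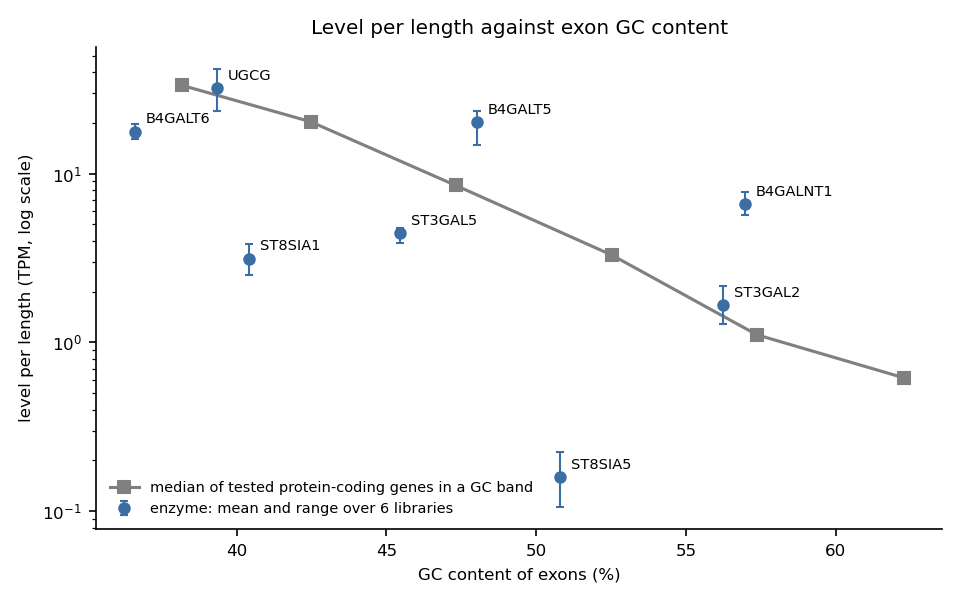
Mean level per length (TPM, log scale) of the 8 tested enzymes against the GC content of their exons in percent, with bars for the range over the 6 libraries. Grey squares are medians of tested protein-coding genes in 6 GC bands, from 33.3 to 0.617 TPM, and *B4GALNT1* (6.56 TPM) lies above its band while *ST8SIA1* (3.13 TPM) lies below.

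Genes around the pathway were read from lists of known function, and 0 of them passed the adjusted threshold in either direction. For ceramide supply 13 of 16 genes were tested, with a median log2 fold change of -0.015. At an unadjusted p under 0.05, 0 were higher and 1 lower, against 5.83% and 4.94% of all genes. *SPTLC3*, a subunit of serine palmitoyltransferase, had 2.05 ± 0.853 CPM with EtOH and 1.04 ± 0.340 CPM with Tet (SD, n = 3 each, log2 fold change -0.98, adjusted p = 0.462 by edgeR). *PLEKHA8*, which carries glucosylceramide to the later enzymes, had 139.6, 172.8 and 147.0 CPM with EtOH and 175.1, 186.8 and 173.1 CPM with Tet, barely apart (0.22, adjusted p = 0.665 by edgeR). For the supply of sugar nucleotides 10 of 12 genes were tested. Here 0 were higher and 1 lower at an unadjusted p under 0.05, against 5.83% and 4.94% of all genes. There all Tet libraries lay below all EtOH libraries for 3 of the 10, against 8.28% of all genes, among them *NANP*, the phosphatase that releases free sialic acid (34.4 ± 8.19 against 24.3 ± 3.68 CPM, SD, n = 3 each, log2 fold change -0.50, adjusted p = 0.442 by edgeR). The transporter gene *SLC35A3* overlapped widely between the labels (0.21, SE 0.28).

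Of the enzymes that lead ceramide and its glycolipids elsewhere, 6 of 8 were tested. At an unadjusted p under 0.05, 1 was higher and 2 lower, against 5.83% and 4.94% of all genes. The labels did not overlap for 5 of these 6, with 1 above and 4 below, against 17.5% of all genes, and the median log2 fold change was -0.24. *CERK*, ceramide kinase, had 23.4, 42.7 and 23.0 CPM with EtOH and 45.8, 70.0 and 43.8 CPM with Tet. Replicate 2 was the highest of each label, and the lowest Tet library was only just above the highest EtOH library (0.84, SE 0.29, adjusted p = 0.337 by edgeR). Without EtOH replicate 2 it passed the threshold (1.20, adjusted p = 0.0241 by edgeR), as it did without replicate 2 of both labels (0.95, adjusted p = 0.0092 by edgeR). Leaving out any of the other 5 libraries gave no call, and the difference was smallest without Tet replicate 2 (0.59, adjusted p = 0.661 by edgeR). *B3GNT5*, which starts the lacto-series from lactosylceramide, had 27.1, 35.9 and 25.9 CPM with EtOH and 19.1, 24.0 and 18.4 CPM with Tet, apart but not past the threshold (-0.53, SE 0.20, adjusted p = 0.377 by edgeR).

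Of 16 other sialyltransferases 13 were tested, with a median log2 fold change of -0.062. At an unadjusted p under 0.05, 1 was higher and 0 lower, against 5.83% and 4.94% of all genes. *ST6GAL2*, which sialylates glycoprotein chains, had 45.0, 56.8 and 43.8 CPM with EtOH and 67.9, 108.6 and 59.8 CPM with Tet (0.70, SE 0.24, adjusted p = 0.332 by edgeR). Tet replicate 2 was the highest, and without it the log2 fold change was 0.40 (adjusted p = 0.651 by edgeR). *ST8SIA4*, a polysialyltransferase, had 18.1, 18.2 and 19.8 CPM with EtOH and 15.6, 12.2 and 15.5 CPM with Tet, below without overlap (-0.37, SE 0.18, adjusted p = 0.519 by edgeR). All Tet libraries lay above all EtOH libraries for 2 of the 13, against 9.20% of all genes, and below for 3, against 8.28%. Within this family *ST8SIA1* was thus not the only member apart between the labels. Per length, *ST6GALNAC5*, chosen after its values were seen, reached 109.0 TPM, far above any of the 9 enzymes.

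Of 14 genes that break gangliosides down, 11 were tested. At an unadjusted p under 0.05, 0 were higher and 0 lower, against 5.83% and 4.94% of all genes. None was apart between the labels, against 17.5% of all genes. The acid ceramidase gene *ASAH1* had a log2 fold change of 0.13 (SE 0.16). The pair of enzymes for O-acetylation of sialic acid, which yields O-acetylated forms of GD2 and GD3, differed from each other. *CASD1*, which adds the acetyl group, had 86.0, 94.5 and 93.6 CPM with EtOH and 135.2, 135.7 and 99.7 CPM with Tet, apart but with Tet replicate 3 near the EtOH libraries (0.43, SE 0.17, adjusted p = 0.389 by edgeR). *SIAE*, which removes it, stayed between 3.95 and 4.23 CPM (-0.023, SE 0.22), with 42.4% of its exon bases inside other genes.

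**Figure D5:**
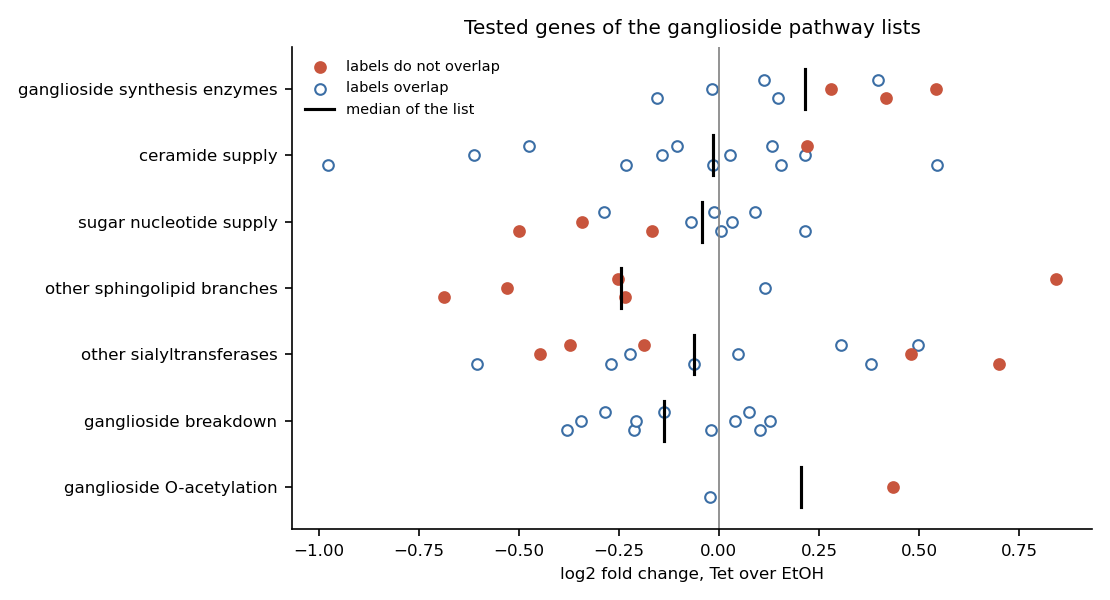
Log2 fold change of Tet over EtOH for each tested gene of the synthesis enzymes and of 6 lists around them. Filled points are genes whose labels do not overlap, open points those that overlap, and vertical bars are list medians, which run from -0.24 for the other sphingolipid branches to 0.21 for the synthesis enzymes.

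Markers of cell state also differed in level between some libraries. Of the 5 tested of 7 noradrenergic markers, 3 were higher with Tet at an unadjusted p under 0.05, against 5.83% of all genes, and the other 2 had negative log2 fold changes. The summed level of the list ran from 555.8 to 655.1 CPM with EtOH and from 653.9 to 771.1 CPM with Tet. *ISL1*, a transcription factor of sympathetic neurons, had 41.3, 65.6 and 40.9 CPM with EtOH and 109.7, 144.3 and 79.8 CPM with Tet (1.18, SE 0.27, adjusted p = 0.142 by edgeR). Of the 6 tested of 7 mesenchymal-state markers, 1 was higher and 1 lower at that p, against 5.83% and 4.94% of all genes. The summed level of the mesenchymal-state list ran from 163.7 to 279.1 CPM with EtOH and from 163.7 to 256.3 CPM with Tet. The summed Schwann lineage markers stayed at or under 5.59 CPM and the blood and endothelial markers at or under 1.14 CPM in every library. The part of these states in the levels of *ST8SIA1* and *B4GALNT1* was not tested.

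Profiles most like those of the last steps of GD2 synthesis were looked up among 8231 protein-coding genes with a mean of at least 5 CPM, by Pearson correlation of log2 CPM over 6 libraries, which share their depth and base composition. For *ST8SIA1* they included *MYOCD* (0.991) and *ROBO2* (0.991), with 89 genes above 0.95. *ROBO2*, a receptor of axon guidance, had 41.8 ± 5.77 CPM with EtOH and 75.2 ± 1.97 CPM with Tet, and *MYOCD* 5.72 ± 1.80 and 17.4 ± 0.215 CPM (SD, n = 3 each). Their adjusted p-values by edgeR were 0.0818 and 0.0611. Without EtOH replicate 2 both passed the threshold (0.0220 for *ROBO2* and 0.0103 for *MYOCD* by edgeR), whereas leaving out any of the other 5 libraries gave 0.238 to 0.380 and 0.188 to 0.330. They also passed by DESeq2 on all 6 libraries (0.00606 and 8.1e-06). For *B4GALNT1* they were *SMIM7* (0.996), *APLP2* (0.991) and *ZNF75D* (0.991), with 67 genes above 0.95, and *APLP2*, a relative of the amyloid precursor gene, had 42.0 ± 8.71 and 58.5 ± 3.03 CPM. These genes were picked for profiles like those of *ST8SIA1* and *B4GALNT1*, which were apart between the labels in these same libraries. A difference of the same direction was thus fixed by the choice, and the p-values of these genes add no support. With 6 points and many genes, close profiles are frequent, and nothing about shared function follows from them.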

How the data were processed

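Total RNA depleted of ribosomal RNA was sequenced with a stranded, paired-end kit from 3 cultures labelled EtOH and 3 labelled Tet. The deposited values are estimated counts per gene. Per the file headers, the authors used featureCounts 1.6.4 on uniquely placed STAR alignments, summing exons by gene, ignoring strand and dividing a read pair among overlapping genes. The submitters' processing notes name featureCounts 1.5.1 and STAR 2.7.1a. The build is GRCh38. Values that were not whole made up 12.3% to 14.7% of a library's genes. Of 60651 identifiers 99.7% had a symbol, and 92 spike-in rows, all at 0, were left out.

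Counts were rounded, filtered with filterByExpr, scaled by TMM and compared with the two-sided quasi-likelihood F test of edgeR 4.0.16 (R 4.3.3). The Benjamini-Hochberg adjustment covered every gene tested (threshold 0.05). SE was computed as |log2 fold change| / √F. TPM came from counts and the exon length in the same tables. The step was tested on simulated data. Alternatives were other scaling, filters, DESeq2 1.42.0, limma-voom (limma 3.58.1), a replicate block, and libraries left out. A correction for exon GC content, a smooth curve per library used as an offset, was chosen after seeing the data.

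Named were all 9 enzymes, *MYCN*, the tested gene of lowest p in each direction from each list, both genes of the O-acetylation list, and for *ST8SIA1* and *B4GALNT1* the 3 genes of highest correlation. Marker genes, *ST6GALNAC5* and genes overlapping *B4GALNT1* were named in addition after their values were seen. The members and lists were chosen with earlier results of these data known. With 3 libraries a label, a permutation test of a single value cannot give a p under 0.1, so none was used. Each total of counts limits precision by counting error only, and intervals of this kind do not cover PCR copies. Some genes that the naming rule covers are not reported here. Circular RNAs were not analysed here.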

Additional observations from a re-analysis of the deposited data

How the results depend on the processing

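Over all genes, 33 were higher and 20 lower with Tet. These counts were 185 and 117 with no filter on low counts, 282 and 203 with DESeq2, 487 and 387 without replicate 2 of both labels, and 70 and 46 with the GC correction. With RLE size factors 13 genes were lower. Leaving out 1 library at a time gave 0 to 361 higher and 0 to 331 lower genes. The highest of each came without EtOH replicate 2, and leaving out any of the other 5 libraries gave at most 1 in either direction (without Tet replicate 1, 1865 genes had an unadjusted p under 0.05, and without Tet replicate 3, 2067 genes). The cause was not tested.

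None of the 8 tested enzymes passed the threshold under any of the 18 alternatives. *ST8SIA1* kept its direction, with log2 fold changes of 0.47 to 0.59 and adjusted p-values of 0.0803 to 0.740 (edgeR, DESeq2 or limma), as did *B4GALNT1* (0.19 to 0.33), *ST3GAL2* (0.22 to 0.52) and *B4GALT5* (0.25 to 0.53). *ST3GAL5* changed sign with the GC correction (0.011) and ran from -0.076 to 0.030 with 1 library left out. *ST8SIA5* ran from -0.078 to 0.45, *MYCN* from -0.22 to 0.21, *SLC35A3* from -0.0070 to 0.57 and *SIAE* from -0.066 to 0.0020 with 1 library left out. Without replicate 2 of both labels *MYCN* was at 0.13 and *SIAE* at 0.012. Of 486 comparisons of a named gene with an alternative, 453 kept direction and side of the threshold, 22 came to pass it, 0 lost it and 11 changed sign.

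The replicate numbers of the titles were used as a replicate block. Deviations of same-numbered libraries correlated at 0.0603, 0.510 and 0.219 for replicates 1, 2 and 3, and only those of replicate 2 matched their own number best. The labels do not say what same-numbered libraries have in common, and whether they share a batch was not tested. With the block 421 genes were higher and 254 lower, and with block and GC correction together 628 and 449, where *ST3GAL5* was at 0.0042. *CERK* and *ST6GAL2* passed the threshold with the block (adjusted p of 0.0095 and 0.0331 by edgeR), and 0 of the enzymes did.

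The depth behind the weakest enzymes was low. *ST8SIA5* rested on 22 to 35 counts a library and *B3GALT4* on 3 counts in all.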
